A study of Mus musculus with 3 samples.

Results

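The Schlafen genes Slfn1, Slfn2, Slfn3, Slfn4, Slfn5, Slfn8 and Slfn9 were followed in mouse bone marrow cells of Fabp4 homozygous knockout, heterozygous knockout and wild-type mice. The 7 genes were chosen by symbol, and all 7 were present among the 33696 genes of the count matrices. The marrow was profiled by droplet single-cell RNA sequencing of the 3′ ends of transcripts, with 1 library per genotype, and each library pooled cells of 2 mice that no file tells apart. Whether leukaemic cells were part of this marrow is not said in the labels, and neither are the reach of the deletion across tissues or the origin of the mice. Since a genotype had a single library, the spread between animals is unknown and nothing was tested. Every difference below is one between libraries, not between genotypes. All intervals are 95% intervals for counting error only.

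Schlafen proteins are a family of nucleic acid-binding proteins that mammals use to restrain cell growth and virus replication, and several of them bind or cut transfer RNA. The family was first described in developing T cells, and many of its genes are switched on by type I interferon and by microbial products in myeloid cells. In the mouse the short proteins Slfn1 and Slfn2 form the first group, Slfn3 and Slfn4 the intermediate group, and Slfn5, Slfn8 and Slfn9 the long group, which carries a helicase-like part. The longest protein-coding transcripts in the GENCODE annotation had 337 and 378 codons for Slfn1 and Slfn2, 640 and 602 for Slfn3 and Slfn4, and 884, 910 and 910 for Slfn5, Slfn8 and Slfn9.

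The 7 genes lie side by side on chromosome 11, over 264 kb from base 82951349 to base 83215154 of GRCm38.p6 in the RefSeq annotation. Slfn9 and Slfn8 are on the minus strand and the other 5 are on the plus strand. Promoter windows from the RefSeq table, from 250 bases before to 50 bases after the start that the table takes for a gene, were searched on both strands for the letters of the interferon-stimulated response element. GAAA followed by any 2 bases and a further GAAA was found in the windows of Slfn5, Slfn8 and Slfn9, the long group, and in 3.49% of the windows of 27025 genes. The form with 1 base between, GAAANGAAA, was found in the window of Slfn4, and in 3.16% of all genes. The 5 windows below are shown to set the 3 long genes beside Slfn4 and beside Slfn2, whose window held neither form, and capitals mark the matched letters. The window of Slfn5 lies inside the gene as annotated, whose first base is 82951349, and so does not cover that first base.
Slfn5, chr11:82951852-82952151, plus strand: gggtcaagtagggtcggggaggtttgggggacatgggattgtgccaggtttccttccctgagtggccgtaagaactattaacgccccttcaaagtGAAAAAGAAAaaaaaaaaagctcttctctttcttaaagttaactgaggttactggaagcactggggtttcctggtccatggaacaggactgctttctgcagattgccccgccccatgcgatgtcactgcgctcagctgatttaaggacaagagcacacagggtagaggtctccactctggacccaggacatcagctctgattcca
Slfn8, chr11:83020761-83021060, minus strand: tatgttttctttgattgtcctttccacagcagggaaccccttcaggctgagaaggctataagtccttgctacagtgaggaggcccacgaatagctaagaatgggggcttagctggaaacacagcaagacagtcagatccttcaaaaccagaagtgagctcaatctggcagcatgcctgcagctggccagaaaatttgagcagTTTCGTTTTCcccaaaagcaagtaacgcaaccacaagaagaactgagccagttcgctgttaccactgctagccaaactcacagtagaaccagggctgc
Slfn9, chr11:82991781-82992080, minus strand: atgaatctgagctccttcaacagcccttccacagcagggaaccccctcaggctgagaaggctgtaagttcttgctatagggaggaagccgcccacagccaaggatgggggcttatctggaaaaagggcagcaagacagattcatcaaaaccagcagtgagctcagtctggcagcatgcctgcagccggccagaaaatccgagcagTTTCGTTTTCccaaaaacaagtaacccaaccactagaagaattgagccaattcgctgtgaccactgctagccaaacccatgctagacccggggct
Slfn4, chr11:83174936-83175235, plus strand: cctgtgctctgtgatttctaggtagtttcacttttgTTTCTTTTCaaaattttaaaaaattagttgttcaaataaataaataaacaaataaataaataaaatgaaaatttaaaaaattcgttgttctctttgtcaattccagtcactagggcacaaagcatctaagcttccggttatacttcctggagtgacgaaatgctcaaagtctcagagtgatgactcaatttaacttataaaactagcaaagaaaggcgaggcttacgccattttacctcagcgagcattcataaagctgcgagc
Slfn2, chr11:83064862-83065161, plus strand: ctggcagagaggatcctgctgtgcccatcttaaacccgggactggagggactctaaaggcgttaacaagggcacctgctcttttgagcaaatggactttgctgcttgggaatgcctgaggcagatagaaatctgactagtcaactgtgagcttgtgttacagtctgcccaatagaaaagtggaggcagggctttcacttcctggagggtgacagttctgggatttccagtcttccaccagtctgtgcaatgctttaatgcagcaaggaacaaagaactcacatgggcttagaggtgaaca
The match began at base −155 from the table's start in Slfn5, at −48 in Slfn8, at −45 in Slfn9 and at −214 in Slfn4, on the plus strand in Slfn5 and on the minus strand of the gene in the other 3. Slfn8 and Slfn9 carried the same 10 letters at nearly the same place. A second Slfn8 window, for another start, held the same match at −136. None of the 7 genes held TTCNNNGAA, the letters of the gamma-activated site, or GAGGAAGT, the strict letters searched for a PU.1 site. Of all genes, 8.47% and 3.28% held them. Looser forms of these sites were not searched. A match describes these letters and does not show that a factor binds there.

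Some members are close copies, which bears on how reads could be assigned. The best local alignment of Slfn3 with Slfn4 had 94.8% identity over 1672 bases, and that of Slfn8 with Slfn9 had 92.1% over 3728 bases. Slfn10-ps, a pseudogene between Slfn8 and Slfn2, matched Slfn8 at 92.7% and Slfn9 at 92.9%. A 3′ library reads near the end of a transcript. In the last 500 annotated bases, 12.9% of the 50-base stretches of Slfn3 and 3.1% of those of Slfn8 also occurred in another of these transcripts. The other 5 had 0%. By this measure small values of Slfn3 and Slfn8 are less certain than the rest. The Slfn3 transcript used had 1966 bases for 640 codons, and whether the library read at the annotated ends was not tested.

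A cell was kept with 500 or more UMIs (counted transcript molecules), 200 or more detected genes and less than 10% mitochondrial UMIs. Kept cells numbered 4318 of 8115 barcodes in the homozygous library, 7957 of 10718 in the heterozygous and 5604 of 9432 in the wild type, with medians of 9037, 7658 and 10058 UMIs. Pairs of libraries shared 21 to 26 barcodes. Fabp4, the targeted gene, encodes a fatty acid-binding protein of fat cells and macrophages. It had 5 UMIs in homozygous, 38 in heterozygous and 50 in wild-type kept cells, which is 0.109, 0.521 and 0.745 CPM, the UMIs of a gene per 1000000 UMIs of the same cells. Fabp4 was lower in the homozygous than in the wild-type library, with a log2 ratio of −2.78 (interval −4.46 to −1.46), and not apart between heterozygous and wild type, at −0.51 (−1.16 to 0.12). A 3′ tag need not lie in the deleted part of the gene.

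Cells were sorted into classes by summed marker genes, and a class is a range of scores and not a separate population. Of 17879 kept cells, 3174 (17.8%) entered no class, and 1010 of the 14615 gated cells (6.91%) lay near a threshold. Defining markers were present in their own gates, with Elane at 4591 to 5994 CPM in granulocyte-monocyte progenitor and promyelocyte-like cells, called GMP-like here, Camp at 20632 to 25789 CPM in immature neutrophil-like cells, and Retnlg at 1070 to 2070 CPM in mature neutrophil-like cells. Csf1r had 144 to 172 CPM in monocyte-like cells, Angpt1 393 to 554 CPM in progenitor-like cells and H2-Aa 2606 to 3688 CPM in dendritic-like cells. All of these markers are among the genes that set the gates. Their presence there was fixed in advance and is no independent support for the class names. The eosinophil-like class rested on Prg2 and Prg3, and Epx, another eosinophil granule gene, was near 0 there at 0.983, 0.448 and 0.738 CPM in the homozygous, heterozygous and wild-type library. Median scores of other classes reached 0.38 for immature neutrophil genes in the mature neutrophil gate, and 0.38 for progenitor and 0.45 for monocyte genes in the dendritic gate.

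The libraries differed widely in make-up. Mature neutrophil-like cells were 225 of the homozygous kept cells (5.21%), 1775 of the heterozygous (22.3%) and 204 of the wild-type (3.64%). Immature neutrophil-like cells were 317, 2014 and 581 cells. Monocyte-like cells were 1483 (34.3%), 960 (12.1%) and 1279 (22.8%). The heterozygous library held 4507 cells with Y-linked RNA and no Xist RNA, 1148 with Xist RNA alone, 880 with both and 1422 with neither. The homozygous and wild-type libraries were mostly Xist-only, with 3636 and 5151 such cells against 142 and 74 with Y-linked RNA alone. Values over all kept cells therefore mix levels per class with class shares, and both are given.

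Over all kept cells, the 7 Schlafen genes were all higher in the homozygous than in the wild-type library. Slfn2, which guards T cells and monocytes from loss of quiescence in the mouse, had 299.7 CPM in homozygous, 284.9 CPM in heterozygous and 155.8 CPM in wild-type cells. Slfn1, its short relative, had 56.2 CPM in homozygous, 50.5 CPM in heterozygous and 17.4 CPM in wild-type cells. Both knockout libraries stood above wild type for this pair over all kept cells. With the class shares of the wild-type library given to each library, the heterozygous gap was smaller. Slfn1 then had 54.29 CPM in homozygous, 32.26 CPM in heterozygous and 25.25 CPM in wild-type cells, and Slfn2 282.8, 228.3 and 178.1 CPM.

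The intermediate genes moved less. Slfn4, known from activated myeloid cells, had 33.5 CPM in homozygous, 46.5 CPM in heterozygous and 25.8 CPM in wild-type cells. Slfn3, studied in rodent T cells and gut epithelium, had 7.2 CPM in homozygous, 4.87 CPM in heterozygous and 5.87 CPM in wild-type cells. Slfn4 was the only member highest in the heterozygous library over all kept cells.

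The long genes were all highest in the homozygous library. Slfn5, an interferon-induced nuclear protein, had 82.2 CPM in homozygous, 24.3 CPM in heterozygous and 31.5 CPM in wild-type cells. Slfn8, a second long member, had 19.9 CPM in homozygous, 6.31 CPM in heterozygous and 7.16 CPM in wild-type cells. Slfn9, its close copy, had 14.1 CPM in homozygous, 1.96 CPM in heterozygous and 5.73 CPM in wild-type cells, so that the heterozygous library was the lowest.

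As log2 ratios of homozygous over wild type, Slfn1 stood at 1.69 (1.59 to 1.79), Slfn8 at 1.47 (1.31 to 1.63), Slfn5 at 1.39 (1.31 to 1.46) and Slfn9 at 1.30 (1.12 to 1.49). These 4 members were more than 2-fold higher, a difference that 4.18% of the 17034 genes with at least 20 UMIs in the pair also had. At the class shares of the wild-type library Slfn5 was at 0.91, and 3 members were more than 2-fold higher. Slfn2 followed at 0.94 (0.91 to 0.98), Slfn4 at 0.38 (0.28 to 0.47) and Slfn3 at 0.30 (0.08 to 0.51). The median of the 7 was 1.30, and that of all genes was 0.06.

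Against the same wild-type library, the heterozygous library was higher for Slfn1 at 1.54 (1.44 to 1.64), for Slfn2 at 0.87 (0.84 to 0.90) and for Slfn4 at 0.85 (0.77 to 0.93). It was lower for Slfn9 at −1.55 (−1.83 to −1.27), for Slfn5 at −0.37 (−0.46 to −0.28) and for Slfn3 at −0.27 (−0.48 to −0.06), and the interval of Slfn8 reached 0 at −0.18 (−0.37 to 0.00). Of the 7, 1 was past 2-fold higher and 1 past 2-fold lower, shares that stand beside 5.74% and 6.9% of 17412 genes. The median of all genes was −0.14 here, and relative to it the members' median was −0.04.

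Homozygous over heterozygous, the 3 long genes had the largest ratios of the family over all kept cells, with Slfn9 at 2.85 (2.58 to 3.12), Slfn5 at 1.76 (1.67 to 1.84) and Slfn8 at 1.65 (1.49 to 1.82). The 3 members past 2-fold higher compare with 7.31% of 17026 genes. Among Xist-only cells 2 members were past 2-fold higher, Slfn9 at 2.76 (2.17 to 3.43) and Slfn3 at 1.10 (0.58 to 1.66), while Slfn5 was at 0.89 (0.74 to 1.03) and Slfn8 at 0.86 (0.57 to 1.17). Over all kept cells, Slfn1 at 0.15 (0.08 to 0.23) and Slfn2 at 0.07 (0.04 to 0.10) lay under the median of all genes, 0.22. Relative to it they had ratios of −0.07 and −0.15. At wild-type class shares Slfn1 had 54.3 CPM in homozygous and 32.3 CPM in heterozygous cells, and Slfn2 282.8 and 228.3 CPM. In Xist-only cells the ratio was 0.66 (0.49 to 0.83) for Slfn1 and 0.33 (0.27 to 0.40) for Slfn2. In mature neutrophil-like cells Slfn1 was at 1.16 (1.01 to 1.31). Immature neutrophil-like and GMP-like cells had 0.08 (−0.19 to 0.35) and −0.32 (−0.88 to 0.23) for Slfn1.

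**Figure D1:**
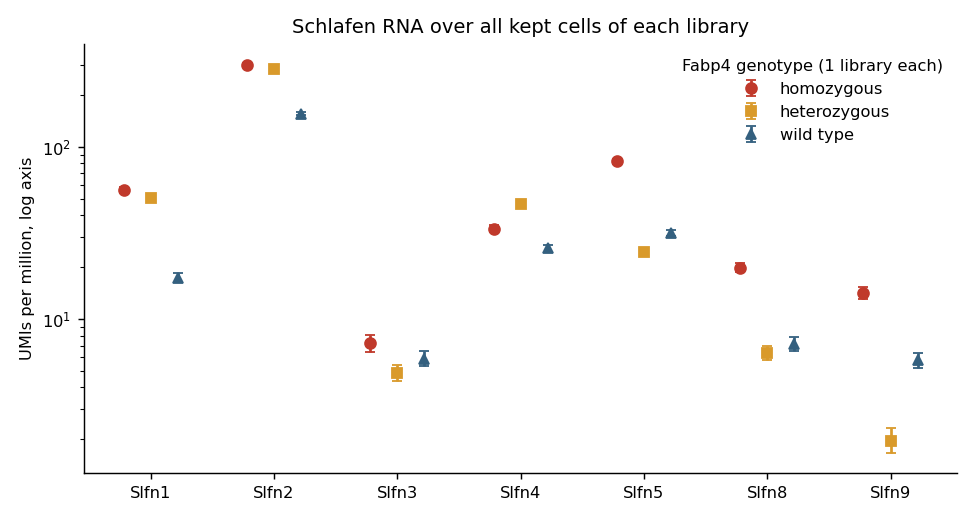
Level of each Schlafen gene over all kept cells, in CPM on a log axis, for the homozygous, heterozygous and wild-type library. Points are 1 library each and bars are 95% counting intervals; Slfn1 and Slfn2 are high in both knockout libraries (56.2 and 50.5 against 17.4 CPM for Slfn1), and Slfn5, Slfn8 and Slfn9 are highest in the homozygous one.

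The class with the highest level was the same in the 3 libraries for 5 of the 7 genes. Slfn1, Slfn2 and Slfn4 were highest in mature neutrophil-like cells in every library. Slfn5 and Slfn8 were highest in dendritic-like and next in monocyte-like cells in every library. For Slfn8 these classes differed beyond counting error in the heterozygous library only (0.49, 0.12 to 0.86). The ratio was 0.40 (−0.17 to 0.92) in the homozygous and 0.40 (−0.36 to 1.07) in the wild-type library. Slfn3 and Slfn9 had little RNA in mature neutrophil-like cells, and the class in which each was highest differed between libraries.

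Slfn1 climbed steeply from GMP-like to mature neutrophil-like cells. In homozygous cells it had 8.54 CPM in progenitor-like, 3.86 in GMP-like, 46.0 in immature and 365.5 in mature neutrophil-like cells. In heterozygous cells the same stages had 12.8, 4.82, 43.4 and 163.7 CPM. In wild-type cells they had 4.33, 1.43, 35.7 and 188.0 CPM.
Mature over GMP-like cells, the log2 ratio of Slfn1 was 6.57 (6.15 to 7.0) in the homozygous, 5.08 (4.71 to 5.48) in the heterozygous and 7.03 (6.43 to 7.69) in the wild-type library. Monocyte-like cells held 92.2, 47.3 and 36.3 CPM, and dendritic-like cells 99.3, 34.0 and 26.8 CPM. In the homozygous library these 2 neighbours in the order did not differ beyond counting error, at 0.11 (−0.27 to 0.46).

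Homozygous over wild type, Slfn1 was higher in all 7 classes, with intervals above 0 throughout. The ratio was 1.89 (1.20 to 2.63) in dendritic-like, 1.35 (1.20 to 1.49) in monocyte-like, 0.96 (0.72 to 1.20) in mature neutrophil-like and 0.36 (0.04 to 0.69) in immature neutrophil-like cells. Among Xist-only cells it was 0.05 (−0.34 to 0.44) in immature neutrophil-like and 0.49 (−0.81 to 1.58) in progenitor-like cells. The intervals of Xist-only cells stayed above 0 in the other classes. The heterozygous over wild-type ratio was 0.38 (0.20 to 0.57) in monocyte-like and −0.20 (−0.41 to 0.01) in mature neutrophil-like cells, smaller than the 1.54 over all kept cells. It was larger where Slfn1 was scarce, at 1.57 (0.94 to 2.18) in progenitor-like and 1.75 (1.05 to 2.48) in GMP-like cells, where the heterozygous library held only 43 and 60 UMIs of Slfn1, and at 2.80 (1.89 to 3.79) in eosinophil-like cells. In heterozygous cells, 45.4% of all Slfn1 UMIs came from mature neutrophil-like cells, against 18.4% in wild type.

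Slfn2 was measured most firmly, with 13813, 20761 and 10458 UMIs in the 3 libraries. It had 730.9 CPM in homozygous, 577.8 CPM in heterozygous and 488.9 CPM in wild-type mature neutrophil-like cells. Monocyte-like cells had 418.6, 313.0 and 272.6 CPM. GMP-like cells had 167.7, 126.4 and 86.9 CPM, and progenitor-like cells 158.2, 138.8 and 78.9 CPM.
The value of Slfn2 was highest in the homozygous and lowest in the wild-type library in each of the 7 classes. The 2 knockout libraries did not differ beyond counting error in progenitor-like, immature neutrophil-like and eosinophil-like cells. Homozygous over wild type the log2 ratio ran from 0.35 (0.23 to 0.47) in immature neutrophil-like to 1.0 (0.81 to 1.19) in progenitor-like cells. For heterozygous over wild type it ran from 0.20 (0.13 to 0.27) in monocyte-like to 0.81 (0.65 to 0.98) in progenitor-like cells. The Slfn2 protein shields transfer RNA from the nuclease angiogenin in mouse T cells. Of 5 genes for angiogenin and transfer RNA care, 4 had at least 20 UMIs over all kept cells. Homozygous over wild type, all 4 were higher and none past 2-fold, with a median of 0.16. Of all genes, 56.9% were higher in that comparison, with a median of 0.06. Heterozygous over wild type, all 4 were lower, with a median of −0.70. Of all genes, 37.7% were higher there, with a median of −0.14. Within classes the heterozygous over wild-type median of the listed genes ran from −0.81 in mature neutrophil-like to 0.08 in dendritic-like cells, from 3 genes each.

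Slfn4 was a neutrophil gene in all libraries. It had 203.7 CPM in homozygous, 93.9 CPM in heterozygous and 111.1 CPM in wild-type mature neutrophil-like cells. Immature neutrophil-like cells had 104.4, 67.7 and 68.8 CPM, and GMP-like cells 18.1, 17.3 and 24.5 CPM. Mature over GMP-like cells, the log2 ratio of Slfn4 was 3.50 (3.24 to 3.75) in the homozygous, 2.44 (2.23 to 2.66) in the heterozygous and 2.18 (1.88 to 2.47) in the wild-type library.
Homozygous over wild type, Slfn4 was higher in mature (0.87, 0.56 to 1.19) and immature neutrophil-like cells (0.60, 0.38 to 0.82), and lower in GMP-like cells (−0.44, −0.67 to −0.21). Monocyte-like cells had 25.5, 18.1 and 29.1 CPM, with a ratio of −0.19 (−0.38 to 0.00), homozygous over wild type. The heterozygous library was lower than wild type in monocyte-like (−0.68, −0.95 to −0.42) and GMP-like cells (−0.50, −0.75 to −0.26), not apart in mature neutrophil-like cells (−0.24, −0.51 to 0.04), and higher in progenitor-like (1.08, 0.58 to 1.58) and eosinophil-like cells (1.53, 0.91 to 2.15). Over all kept cells it was higher, at 0.85. With the class shares of the wild-type library given to each library, that ratio was −0.12.

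Slfn5 marked the monocyte and dendritic side. Dendritic-like cells had 234.2 CPM in homozygous, 101.4 CPM in heterozygous and 152.0 CPM in wild-type cells, and monocyte-like cells had 161.6, 96.6 and 90.2 CPM. GMP-like cells had only 7.28, 3.94 and 4.02 CPM. Dendritic-like and monocyte-like cells did not differ beyond counting error in the heterozygous library (0.07, −0.11 to 0.25) and did in the homozygous (0.54, 0.29 to 0.77) and the wild-type library (0.75, 0.49 to 1.01).
Monocyte-like over GMP-like cells, the log2 ratio of Slfn5 was 4.47 (4.19 to 4.78) in the homozygous, 4.62 (4.2 to 5.06) in the heterozygous and 4.49 (4.14 to 4.86) in the wild-type library. This contrast between classes was nearly the same in the 3 libraries. Mature neutrophil-like cells were unlike the monocytes. They had 103 CPM in homozygous, 17.2 CPM in heterozygous and 30.6 CPM in wild-type cells, from 128, 176 and 35 UMIs.

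Homozygous over wild type, Slfn5 was higher in all 7 classes with intervals above 0, from 0.62 (0.28 to 0.97) in dendritic-like to 1.75 (1.20 to 2.33) in mature neutrophil-like and 2.03 (1.36 to 2.69) in eosinophil-like cells. Between heterozygous and wild-type monocyte-like cells the ratio was 0.10 (−0.03 to 0.22). The heterozygous library was lower in mature neutrophil-like (−0.83, −1.36 to −0.26), dendritic-like (−0.58, −0.87 to −0.29) and eosinophil-like cells (−1.10, −2.32 to −0.06). Among monocyte-like cells, 16.3% of homozygous, 4.69% of heterozygous and 4.14% of wild-type cells held 5 or more Slfn5 UMIs, at median depths of 11011, 8752 and 10200 UMIs.

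Slfn8 followed Slfn5 from class to class. Dendritic-like cells had 46.0 CPM in homozygous, 26.8 CPM in heterozygous and 21.2 CPM in wild-type cells, and monocyte-like cells 34.9, 19.0 and 16.1 CPM. GMP-like cells had 4.44, 1.45 and 1.61 CPM. Over the 21 sums of a class and a library, log2(CPM + 1) of Slfn8 and Slfn5 had a Pearson correlation of 0.98, a description of sums that share libraries.
The homozygous over wild-type ratio of Slfn8 was 1.11 (0.90 to 1.33) in monocyte-like, 1.47 (0.80 to 2.17) in GMP-like and 1.10 (0.08 to 2.21) in mature neutrophil-like cells. Immature neutrophil-like cells had 14 and 16 UMIs, too few to set the libraries apart (0.78, −0.36 to 1.91). The heterozygous over wild-type ratio of Slfn8 was 0.24 (−0.06 to 0.52) in monocyte-like and −1.40 (−2.41 to −0.37) in immature neutrophil-like cells.

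Slfn9 did not follow its copy Slfn8. It had 23.5 CPM in homozygous, 1.42 CPM in heterozygous and 5.80 CPM in wild-type immature neutrophil-like cells. GMP-like cells had 10.6, 2.09 and 7.80 CPM, and monocyte-like cells 16.5, 2.98 and 4.41 CPM. Mature neutrophil-like cells had 1, 8 and 0 UMIs, and the 0 in wild type allows up to 3 UMIs.
Slfn9 was the member with the widest gap between the knockout libraries, 4.05 (3.39 to 4.74) in immature neutrophil-like and 2.34 (1.73 to 3.0) in GMP-like cells, homozygous over heterozygous. The homozygous over wild-type ratio was 2.02 (1.40 to 2.66) in immature neutrophil-like, 1.91 (1.52 to 2.32) in monocyte-like and 0.44 (0.09 to 0.78) in GMP-like cells. Against wild type, the heterozygous library stood at −2.03 (−2.81 to −1.26) in immature neutrophil-like and −1.90 (−2.57 to −1.29) in GMP-like cells. Over the same 21 sums, Slfn9 and Slfn8 had a correlation of 0.12.

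Slfn3 was low everywhere, and in the homozygous and heterozygous libraries none of the 6 pairs of neighbouring classes in its order differed beyond counting error. Immature neutrophil-like cells had 10.02 CPM in homozygous, 5.83 CPM in heterozygous and 9.67 CPM in wild-type cells, and GMP-like cells 6.26, 5.95 and 8.32 CPM. Mature neutrophil-like cells had 4, 14 and 2 UMIs. Wild-type dendritic-like cells had 0 UMIs, which allows up to 3, against 4 and 7 in the homozygous and heterozygous libraries.
Monocyte-like cells were the exception for Slfn3, with 7.81 CPM in homozygous, 4.42 CPM in heterozygous and 3.80 CPM in wild-type cells. The ratio there was 1.04 (0.59 to 1.51), homozygous over wild type, and in GMP-like cells it was −0.41 (−0.81 to −0.02). In the heterozygous library Slfn3 was lower than in wild type in immature neutrophil-like cells, at −0.73 (−1.21 to −0.24), and in GMP-like cells, at −0.48 (−0.91 to −0.07).

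**Figure D2:**
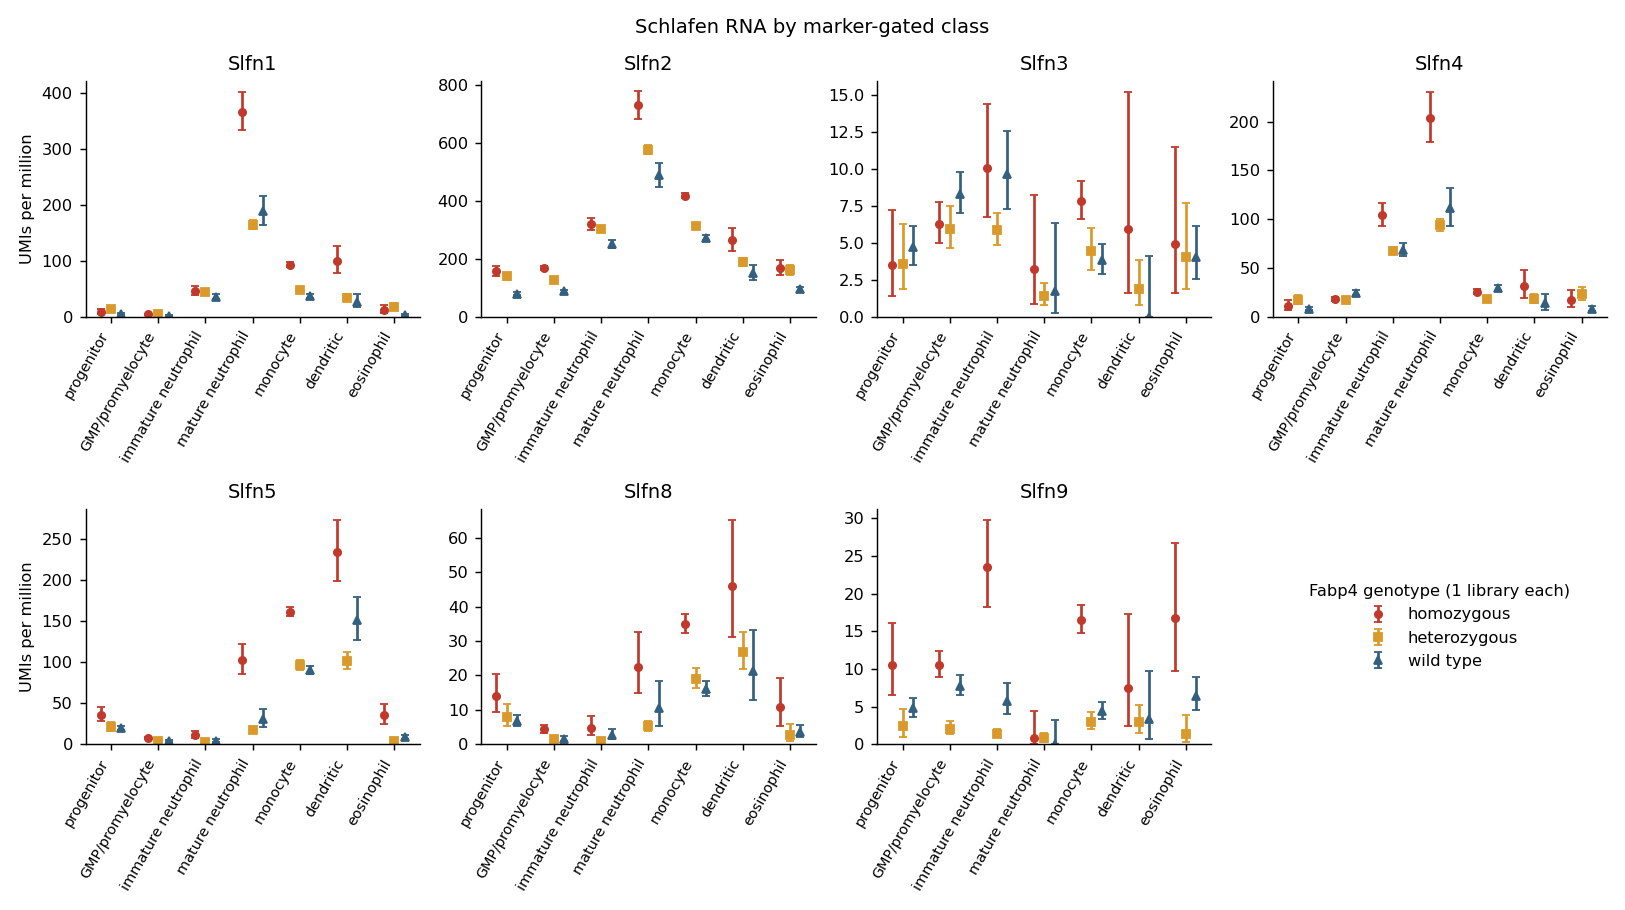
Level of each Schlafen gene by marker-gated class, in CPM on linear axes that start at 0, for the homozygous, heterozygous and wild-type library in each class. Points are 1 library each and bars are 95% counting intervals; Slfn1, Slfn2 and Slfn4 peak in mature neutrophil-like cells, Slfn5 and Slfn8 in dendritic-like and monocyte-like cells, and Slfn3 and Slfn9 are low in mature neutrophil-like cells.

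**Figure D3:**
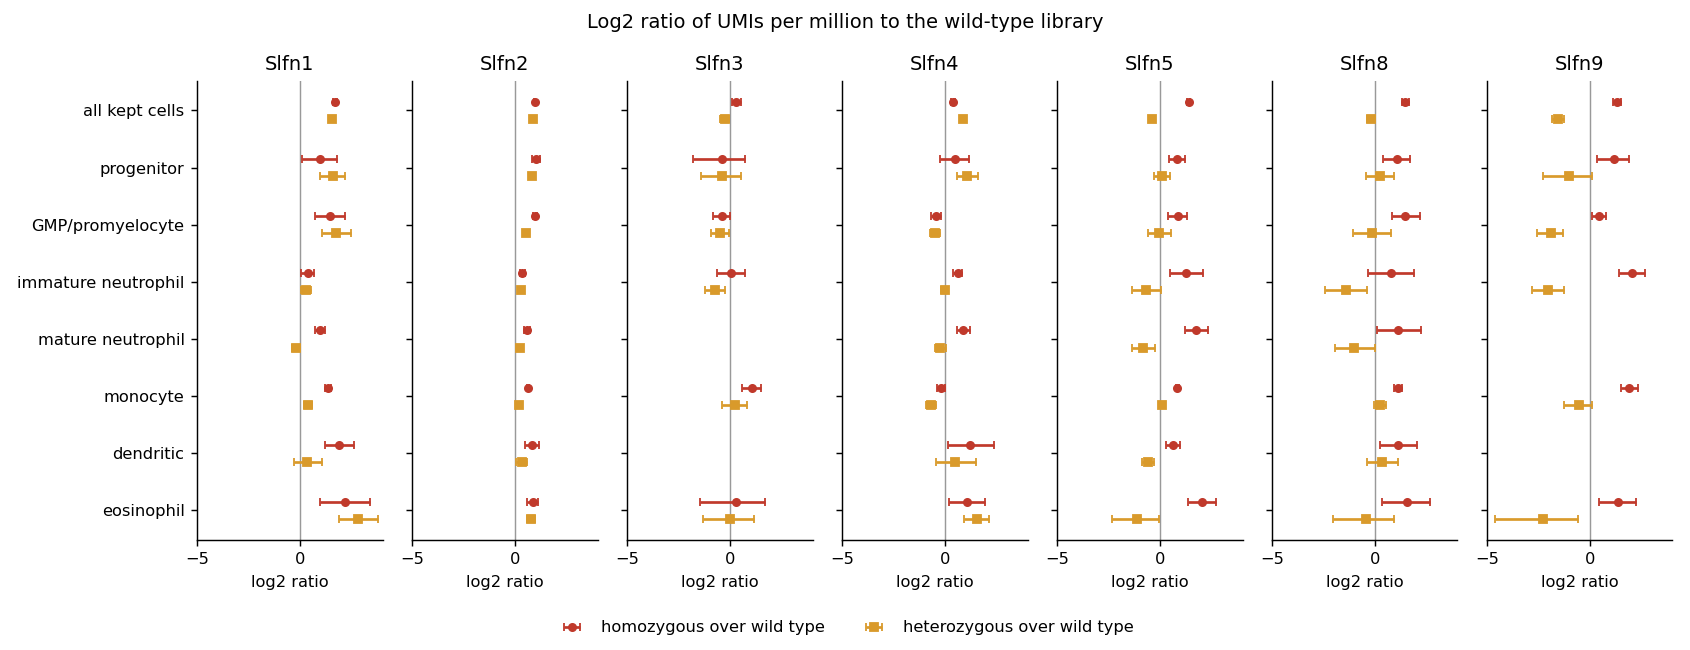
Log2 ratio of each Schlafen gene to the wild-type library, homozygous above heterozygous within each row, over all kept cells and by class, with 95% counting intervals. Ratios with under 20 UMIs in the pair are left out; Slfn2 lies above 0 in every class for both libraries, and Slfn9 lies on opposite sides of 0 in immature neutrophil-like cells, at 2.02 and −2.03.

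Of the 7 classes, 5 held at least 20 UMIs of every member in the homozygous and wild-type libraries together. In monocyte-like cells the members had a median log2 ratio of 1.04, homozygous over wild type, with 0.09 over all genes, and 4 were past 2-fold higher, beside 5.01% of 13641 genes. In progenitor-like cells the medians were 0.98 and 0.07, and 3 were past 2-fold higher, beside 5.18% of 12368 genes. In GMP-like cells they were 0.86 and 0.03, with 2 past 2-fold higher, beside 2.74% of 13882 genes.
Immature neutrophil-like cells had medians of 0.60 and 0.00, with 2 past 2-fold higher, beside 2.45% of 10939 genes. Eosinophil-like cells had medians of 1.37 and 0.04, with 5 past 2-fold higher, beside 4.58% of 10688 genes. In these 5 classes the members' median, heterozygous over wild type, lay between −0.69 and 0.25.

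Detection in single cells was compared at equal depth. With each cell thinned to 1000 UMIs, Slfn1 was seen in 28.5% (22.5 to 35.2) of homozygous, 15.2% (13.49 to 17.0) of heterozygous and 17.2% (12.2 to 23.2) of wild-type mature neutrophil-like cells. In GMP-like cells, taken as the background, the thinned shares of Slfn1 were 0.217%, 0.525% and 0.197%. Without thinning, the mature neutrophil-like shares were 65.8%, 50.7% and 49.0%. Cells under 1000 UMIs were left out, 231 homozygous, 258 heterozygous and 75 wild-type.
Slfn5 was seen in 15.0% (13.2 to 16.9) of homozygous, 9.04% (7.30 to 11.1) of heterozygous and 9.73% (8.16 to 11.5) of wild-type monocyte-like cells after thinning, against 57.5%, 38.9% and 44.8% before. Its thinned background in immature neutrophil-like cells was 0.656%, 0.252% and 0.172%. At least 2 different members were seen in 32.9% (26.5 to 39.7) of homozygous, 11.3% (9.86 to 12.9) of heterozygous and 11.6% (7.51 to 16.9) of wild-type mature neutrophil-like cells. The like shares of monocyte-like cells were 12.9%, 5.57% and 5.73%.

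The mix of Schlafen UMIs changed with cell type. Slfn2 gave 76.9%, 78.1% and 64.6% of the 7 genes' UMIs in homozygous, heterozygous and wild-type GMP-like cells, and 38.5%, 50.3% and 41.0% in dendritic-like cells. Slfn1 gave 1.77%, 2.98% and 1.07% in GMP-like cells and 25.6%, 19.0% and 22.6% in mature neutrophil-like cells. Slfn5 gave 34.0%, 27.2% and 41.3% in dendritic-like cells. The 7 genes together had 1430 CPM in homozygous, 860.0 CPM in heterozygous and 830.8 CPM in wild-type mature neutrophil-like cells, the highest of any class in each library.

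**Figure D4:**
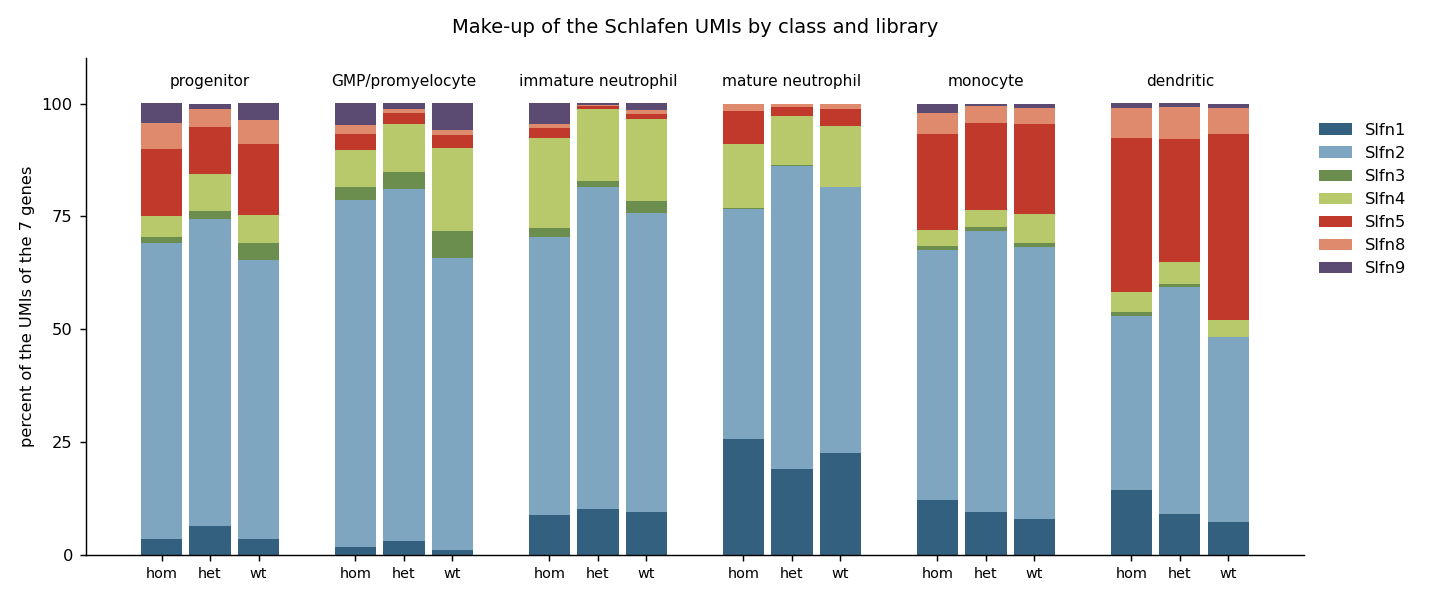
Share of each gene in the UMIs of the 7 Schlafen genes, in percent, for 6 classes and the homozygous (hom), heterozygous (het) and wild-type (wt) library. Slfn2 takes 76.9%, 78.1% and 64.6% in GMP-like cells, Slfn1 grows in mature neutrophil-like cells, and Slfn5 grows in monocyte-like and dendritic-like cells.

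Some members were higher and others lower in cells with RNA of division genes. Cells with RNA of at least 3 of 12 division-marker genes were compared with cells of the same class and library with none. In immature neutrophil-like cells, Slfn3 had 9.54 CPM in dividing and 1.16 CPM in no-marker cells of the heterozygous library, a log2 ratio of 3.04 (1.76 to 4.70). Slfn9 was also higher in dividing immature neutrophil-like cells, at 4.05 (1.51 to 9.38) in the homozygous, 1.80 (0.05 to 4.19) in the heterozygous and 4.04 (1.46 to 9.39) in the wild-type library. The no-marker cells held 1 to 5 UMIs of Slfn3 and of Slfn9, so the intervals are wide, and that of Slfn3 in the homozygous library crossed 0 (2.36, −0.31 to 7.74). In monocyte-like cells the ratio of Slfn3 was 0.09 (−0.58 to 0.81) in the homozygous, 1.47 (0.14 to 2.97) in the heterozygous and 2.21 (0.94 to 3.75) in the wild-type library, and the difference between libraries was not tested.
Slfn1, Slfn2 and Slfn4 lay on the other side. In dividing immature neutrophil-like cells Slfn1 was lower, at −3.15 (−3.93 to −2.42) in the homozygous, −2.25 (−2.55 to −1.97) in the heterozygous and −3.38 (−4.36 to −2.52) in the wild-type library. Slfn2 was lower at −1.24, −1.03 and −0.76, and Slfn4 at −1.51, −1.39 and −0.84. In dividing monocyte-like cells Slfn5 was lower at −2.29 (−2.45 to −2.13), −1.78 (−2.13 to −1.45) and −1.43 (−1.69 to −1.18).
Dividing cells held more RNA, with median totals of 10223, 13118 and 12842 UMIs in immature neutrophil-like cells against 6395, 6971 and 6728 UMIs in no-marker cells. The part of depth and of maturity within the gate in these differences was not tested. Among monocyte-like cells without any division marker, homozygous over wild type, the ratio was 1.72 (1.48 to 1.97) for Slfn1, 0.78 (0.67 to 0.90) for Slfn2, 1.41 (1.24 to 1.58) for Slfn5 and 2.37 (1.39 to 3.47) for Slfn9. Those differences were at least as large as over all monocyte-like cells, of which 35.1% of homozygous, 18.3% of heterozygous and 19.2% of wild-type cells were dividing. Slfn4 stood at 0.54 (0.17 to 0.91) in the no-marker monocyte-like cells and at −0.19 over all of them.

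**Figure D5:**
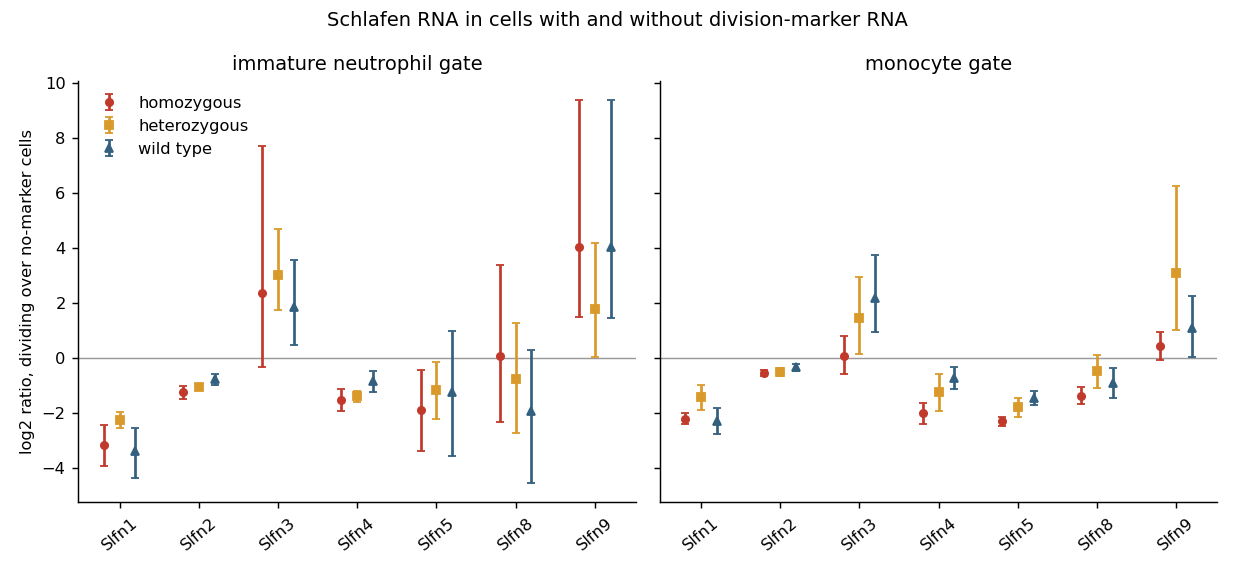
Log2 ratio of each Schlafen gene between cells with RNA of at least 3 division markers and cells with none, in the immature neutrophil and the monocyte gate, for the homozygous, heterozygous and wild-type library, with 95% counting intervals. Slfn3 and Slfn9 lie above 0 in immature neutrophil-like cells, and Slfn1, Slfn2 and Slfn4 lie below 0 in both gates.

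Genes with the most similar pattern over the 21 sums, among 9998 genes with at least 500 UMIs, differed from member to member. For Slfn5 they were Parp14, Shisa5 and Oasl2, each with a correlation of 0.97. For Slfn8 they were Irf9, a transcription factor of the type I interferon response, and Parp14 at 0.97, and Trim30a at 0.96. For Slfn1 they included Nfam1 and Fcer1g at 0.96, which act in immune receptor signalling.
For Slfn3 they were Ncapg at 0.92, Depdc1a at 0.91 and Cdc25c at 0.90, all genes of dividing cells. For Slfn4 they were Ppp1r2 at 0.97, Ampd3 at 0.94 and Cd300lf at 0.93, and for Slfn2 Anxa2, H3f3a and Sin3b at 0.94. For Slfn9 the nearest were weaker, with Lmf2 at 0.89, Usp31 at 0.88 and Rpp30 at 0.86. All sums share library and depth, so these values describe and do not test.

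Interferon-response genes were set beside the members because several Schlafen genes respond to interferon. Of 45 listed genes, none of them a Schlafen gene, 44 were in the files and 43 had at least 20 UMIs over all kept cells of the homozygous and wild-type libraries. Homozygous over wild type, 42 of these were higher and 1 lower, 26 past 2-fold higher beside 4.18% of all genes, and the median log2 ratio was 1.22. For heterozygous over wild type, 20 were higher and 23 lower, 3 past 2-fold higher beside 5.74% of all genes, with a median of −0.06.
Among the listed genes with most UMIs, Ifi27l2a had 528.6 CPM in homozygous, 158.5 CPM in heterozygous and 136.6 CPM in wild-type cells. Bst2, which tethers budding viruses, had 134.2, 31.0 and 54.3 CPM. Ly6e had 683.3, 292.1 and 598.4 CPM, Sp100 251.6, 198.4 and 179.6 CPM and Trim30a 107.6, 39.0 and 54.9 CPM.
The largest ratios, homozygous over wild type, belonged to Ifit3b at 4.70 (3.83 to 5.72), Ifit3 at 4.0 (3.70 to 4.32), Ifit2 and Rtp4 at 2.77, Ifit1 at 2.42 and Rsad2 at 2.38. These encode antiviral effectors. Ifit3 had 22.6 CPM in homozygous, 2.62 CPM in heterozygous and 1.42 CPM in wild-type cells.
In mature neutrophil-like cells the list's median was 1.22, homozygous over wild type, and −0.22, heterozygous over wild type, from 33 and 37 genes with at least 20 UMIs. In monocyte-like cells it was 1.08 and 0.15.
Of 13 interferon, receptor and signalling genes, 10 had at least 20 UMIs, 7 were higher and 3 lower, homozygous over wild type, with a median of 0.22. Ifng, the interferon made by T and natural killer cells, had 86 UMIs in homozygous, 17 in heterozygous and 60 in wild-type cells, or 1.87, 0.233 and 0.894 CPM. Ifng was the only one past 2-fold higher, beside 4.18% of all genes, and was picked for that. T and natural killer-like cells were 0.695% of homozygous, 0.176% of heterozygous and 0.393% of wild-type kept cells. Their part in the Ifng values was not tested. The part of interferon signalling in the Schlafen differences was not tested.

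Within the heterozygous library, Slfn4 had 51.6 CPM in Y-only and 24.3 CPM in Xist-only cells, and Slfn1 55.4 and 33.1 CPM. Slfn5 ran the other way, with 20.4 CPM in Y-only and 44.0 CPM in Xist-only cells. Mature neutrophil-like cells were 1121 of the Y-only and 88 of the Xist-only cells. Inside the monocyte-like class the gap was small for Slfn2 (313.5 and 310.0 CPM), Slfn1 (48.4 and 49.1 CPM) and Slfn5 (103.2 and 94.3 CPM). Slfn4 had 14 CPM in Y-only and 21.8 CPM in Xist-only monocyte-like cells (−0.64, −1.19 to −0.09). Some gaps inside other classes also exceeded counting error, while many others did not. Slfn4 had 70.4 and 40.3 CPM in immature neutrophil-like cells (0.80, 0.45 to 1.18), opposite to monocyte-like cells. Slfn1 had 171.2 and 120 CPM in mature neutrophil-like cells (0.51, 0.15 to 0.90). Slfn5 had 15.9 and 32.2 CPM in progenitor-like cells (−1.01, −1.87 to −0.16), and Slfn2 188.6 and 87.9 CPM in eosinophil-like cells (1.10, 0.57 to 1.67).
In Xist-only cells of each library, heterozygous over wild type, the ratio over all of them was 1.06 for Slfn1, 0.64 for Slfn2, −0.84 for Slfn3, −0.06 for Slfn4, 0.49 for Slfn5, 0.62 for Slfn8 and −1.37 for Slfn9. Homozygous over wild type, Xist-only cells had 1.72 for Slfn1, 0.97 for Slfn2, 0.26 for Slfn3, 0.32 for Slfn4, 1.38 for Slfn5, 1.49 for Slfn8 and 1.40 for Slfn9, close to the values over all kept cells. Slfn9 was thus lower than in wild type in both kinds of comparison of the heterozygous library, while the sign for Slfn5 depended on which cells were taken. Animal, sex and genotype cannot be told apart in this comparison. Within the homozygous library, Slfn9 had 3.87 CPM in the 142 Y-only cells, from 5 UMIs, and 15.2 CPM in Xist-only cells (−1.98, −3.61 to −0.75). Slfn2 (−0.33, −0.50 to −0.17) and Slfn4 (−0.65, −1.27 to −0.09) were also lower in Y-only cells there. Slfn1 (0.37, 0.04 to 0.68) and Slfn5 (0.27, 0.01 to 0.53) were higher, and the intervals of Slfn3 and Slfn8 held 0. These sets were not matched for class, and the cause was not tested.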

How the data were processed

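Droplet 3′ RNA of mouse bone marrow was deposited as 1 matrix of UMI counts per library, made by the authors with Cell Ranger 8.0.1 per the file headers. STAR and the mm10 build are named in the submitters' processing notes, and the annotation release is not given in the sources used here. The values are whole counts per gene and cell barcode, unnormalized. Genotypes were taken from the genotype label, and no matrix column lacked a sample. All 3 matrices were used whole, with 54160590, 78426908 and 77173735 UMIs in the homozygous, heterozygous and wild-type library.

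From these counts, Python 3.11.15 with numpy 2.4.6, scipy 1.17.1, pandas 2.3.3 and matplotlib 3.10.9 summed the UMIs of each library and class and scaled them to CPM. Levels carry 95% exact Poisson intervals, ratios exact conditional binomial intervals and shares Clopper-Pearson intervals, and the ratio step was tested on simulated data. Cells were gated on the summed z-scores of marker genes, with a margin of 0.25 over the next class and a score of at least 0. A gene was measured in a comparison with at least 20 UMIs in both libraries together, and a value of 0 allows up to 3 UMIs. Scrublet in scanpy 1.11.5 marked 0% of barcodes at its automatic threshold, which means that it has not worked, so no doublets were removed, and removal of its top scores was an alternative. With 1 library per genotype no edgeR-type test was made. Other alternatives changed the cell filters, gate margin, scaling, weighting and class shares. Protein sequences were not used here; transcript likeness came from Biopython 1.88 alignments.

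The members and the interferon, ligand and receptor, angiogenin and division lists were chosen with earlier results of these data known, and the interferon list is no independent support. All 7 members are named, with the 6 interferon genes of most UMIs, the 6 of largest ratio, homozygous over wild type, and the 3 genes most like each member; a few that these rules name are not reported here.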

Additional observations from a re-analysis of the deposited data

Results flagged for a closer look

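Slfn3 was higher in monocyte-like cells, with a log2 ratio of 1.04 (0.59 to 1.51), homozygous over wild type, and lower in GMP-like cells, at −0.41 (−0.81 to −0.02). The same comparison ran in opposite directions in these classes, and the difference was not tested.

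Slfn4 also ran both ways, homozygous over wild type, with 1.22 (0.13 to 2.37) in dendritic-like cells, from 21 and 12 UMIs, and −0.44 (−0.67 to −0.21) in GMP-like cells. Heterozygous over wild type, Slfn4 was 1.53 (0.91 to 2.15) in eosinophil-like cells and −0.68 (−0.95 to −0.42) in monocyte-like cells. Neither difference between classes was tested.

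Barcodes with a mitochondrial share of 10% or more entered none of the comparisons above. In them the 7 members together had 257.3 CPM in the homozygous, 220.2 CPM in the heterozygous and 172.5 CPM in the wild-type library, and the log2 ratio, homozygous over wild type, was 0.58 (0.48 to 0.67). Their median depth was 1769, 1737 and 2033 UMIs. Slfn2 gave 1089 of the 2056 member UMIs in the homozygous and 810 of 1719 in the wild-type library. Slfn4 ran the other way, with 48.1 CPM (43.4 to 53.1) in homozygous and 53.4 CPM (48.9 to 58.1) in wild-type barcodes. Each of the other members had a higher value in the homozygous than in the wild-type library.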

How the results depend on the processing

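The median ratio of the 7 members, homozygous over wild type, was 1.30, and 0.91 at the class shares of the wild-type library. For heterozygous over wild type it was −0.18, and 0.49 in Xist-only cells, an alternative chosen after seeing the data; 1 member was past 2-fold higher, and 2 with ratios centred on the median of all genes and 0 at wild-type class shares. For homozygous over heterozygous it was 0.56, and 0.34 with centring, 1.18 with equal weight per cell and 0.86 in Xist-only cells. The 3 members past 2-fold higher in that comparison were 4 with equal weight per cell, and 2 at wild-type class shares and in Xist-only cells. The 4 past it, homozygous over wild type, were 3 at wild-type class shares.

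Of the ratios whose counting interval excluded 0, some changed sign. Heterozygous over wild type, Slfn4 was −0.12 at wild-type class shares and −0.06 in Xist-only cells, and Slfn5 was 0.49 in Xist-only cells. Homozygous over heterozygous, Slfn1 was −0.07 with centring and −0.02 with equal weight, Slfn2 was −0.15 and −0.09, and Slfn4 was 0.46 at wild-type class shares and 0.38 in Xist-only cells. With at least 1000 UMIs and a mitochondrial share under 5%, GMP-like cells had 0.02 for Slfn4, homozygous over wild type, and 0.05 for Slfn3, heterozygous over wild type. Slfn8 in dendritic-like cells was −0.08, homozygous over heterozygous, in Xist-only cells. The cause was not tested. These are 12 values. Sign changes of ratios whose interval held 0 are not among them, such as Slfn8, heterozygous over wild type, at −0.18 over all kept cells and 0.62 in Xist-only cells.

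Over all kept cells, each of the 7 members stayed higher, homozygous over wild type, under the 9 alternatives run, with the lowest value 0.18 for Slfn3 and the highest 1.72 for Slfn1. With every gene of 1 or more UMIs counted, which adds genes of few UMIs, 13.6% of genes were past 2-fold higher and 13.1% past 2-fold lower in that comparison, 12.6% and 16.4% for heterozygous over wild type, and 17.2% and 13.2% for homozygous over heterozygous. No paired analysis was possible because each genotype had 1 library, and for the same reason no library could be left out. Depth limits Slfn3, Slfn8 and Slfn9 in the small classes.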

Other observations

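Slfn10-ps, the pseudogene beside Slfn8, had 2.58 CPM in homozygous, 1.02 CPM in heterozygous and 2.03 CPM in wild-type cells. In T and natural killer-like cells, gated on 30, 14 and 22 cells, it had 2, 5 and 10 UMIs, or 5.63 (0.681 to 20.3), 38.9 (12.6 to 90.7) and 54.2 (26.0 to 99.7) CPM. Monocyte-like cells had 4.29, 1.99 and 4.27 CPM. Slfn14 had 1, 2 and 0 UMIs over all kept cells. Slfn5os, which overlaps Slfn5 on the opposite strand, had 16, 5 and 11 UMIs.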
